A study of Mus musculus with 12 samples.

Results

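Interleukins are secreted signals between immune, stromal and epithelial cells, and each acts through receptor chains that are often shared between several ligands. The genes described here are the interleukins and their receptors outside the interleukin 1 family, taken as all gene symbols that begin with Il and a number. The interleukin 1 and interleukin 36 genes, Il18, Il33, Il7r, Il2ra and Il6ra were left out. The rule found 65 members among the 40213 gene symbols of the files. It kept 4 genes of the wider interleukin 1 family, namely Il18r1, Il18rap, Il18bp and Il1f10. Of the 65 members, 38 passed the filter on low counts and were tested, among 17841 genes tested in all.

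RNA was sequenced from whole kidney of C57BL/6 mice in 3 groups of 4 libraries. The control group had a normal diet and saline by intraperitoneal (IP) injection. The chronic kidney disease (CKD) group had a 2% adenine diet and saline IP. The third group had adenine in the diet and colchicine, an alkaloid that binds tubulin, at 0.3 mg/kg per day IP. For this group the labels give 2, 3, 4 and 5% adenine in replicates 1, 2, 3 and 4, while the design text describes 1 adenine model. The percentages rise in step with the replicate number, and whether they are true doses or a labelling error cannot be told from the labels. For replicates 2, 3 and 4 colchicine and the labelled adenine therefore cannot be told apart. Age and sex are not given in the labels. The titles call the colchicine libraries biological replicates and the control and CKD libraries only replicates, without naming animals. The p-values therefore measure the spread between these libraries.

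Dietary adenine leads to crystals in the tubules, and the kidney responds with tubular injury, infiltration by myeloid cells and lymphocytes, and scarring. Cytokines of the interleukin 6 group signal through gp130 and the factor STAT3. Those of the interleukin 2 group share the common gamma chain and act mainly on lymphocytes. Receptors for interleukins 17, 20 and 22 sit mainly on epithelial and stromal cells, so whole kidney RNA reads ligands and receptors of different cells together.

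Library totals ran from 22200909 to 38253100 counts. Mitochondrially encoded transcripts took 41.5 to 46.7% of the counts in control, 16.7 to 17.3% in CKD and 14.6 to 21.8% with colchicine. Leaving them out changed no call among the 37 members that still passed the filter, while Il9r no longer passed it. Defining markers of kidney epithelium were present in each group, with summed levels of 9091 to 9924 counts per 1000000 (CPM, scaled by TMM, the trimmed mean of M-values) in control, 2376 to 2750 in CKD and 1662 to 1975 with colchicine. The 10 macrophage and monocyte markers summed to 92.8 to 118 CPM in control, 1697 to 1751 in CKD and 1175 to 1741 with colchicine, and all 10 rose in CKD. The 10 T cell markers summed to 7.47 to 9.42, 31.6 to 44.8 and 20.7 to 28.9 CPM, and all 10 rose in CKD. The 8 neutrophil markers ran from 1.64 to 2.43, from 45.2 to 64.4 and from 27.5 to 70.1 CPM, with Camp at 0 in control. The 7 fibroblast markers ran from 347 to 426, from 2509 to 2881 and from 3247 to 3763 CPM, and the 6 dendritic cell markers from 12.5 to 14.9, from 23.9 to 33.9 and from 17.1 to 22.8 CPM. The 8 NK and innate lymphoid markers ran from 1.69 to 2.38, from 3.82 to 4.38 and from 1.87 to 4.67 CPM. The 7 B and plasma cell markers ran from 7.87 to 12.2, from 8.21 to 18.7 and from 4.91 to 20.5 CPM. The 9 markers of mast cells, basophils and eosinophils ran from 13.8 to 19.4, from 21.7 to 27.4 and from 18.5 to 28.0 CPM, with Fcer1a, Prg2 and Epx at 0 in control and Fcer1a at 0 in CKD. In whole tissue, fewer cells of a type and less RNA per cell cannot be told apart, and the part of these cell markers in the results below was not tested. Colchicine replicate 1 stood apart: it was the highest or the lowest of its group for 31 of the 38 members, against 12 to 25 for each of the other 11 libraries.

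**Figure D1:**
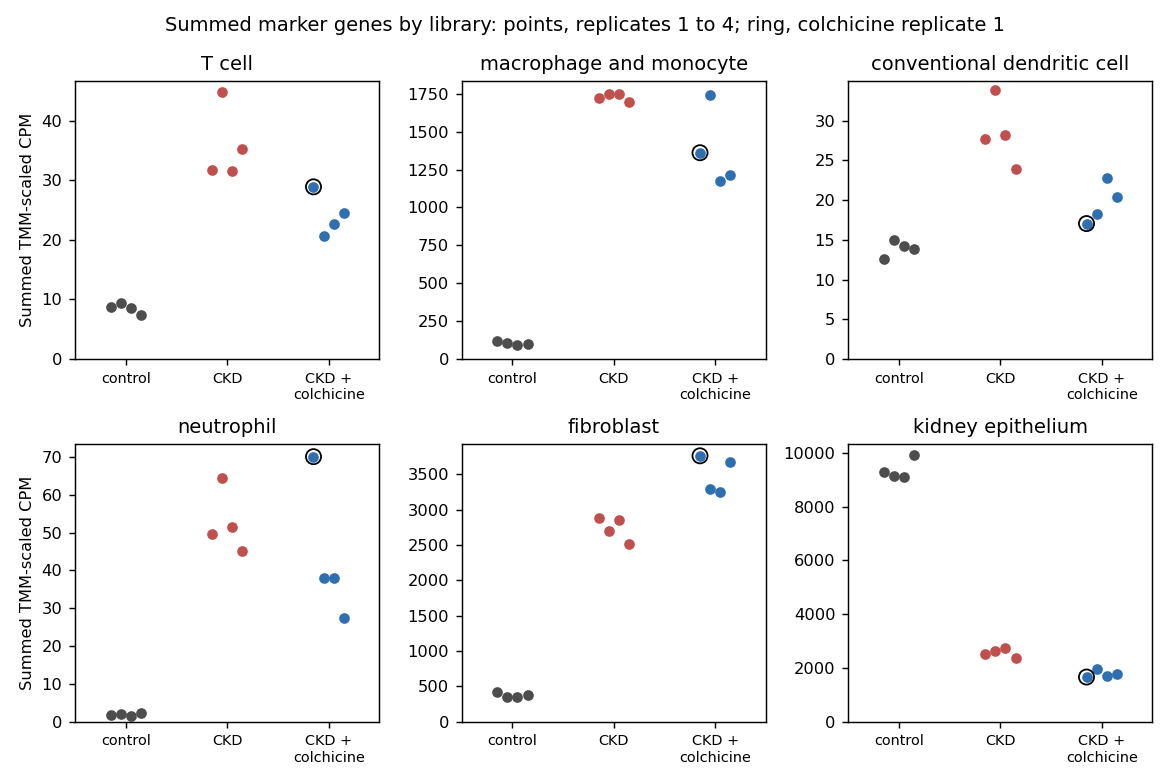
Summed TMM-scaled CPM of 6 marker lists (vertical axes from 0) by group, 1 point per library, with a ring around colchicine replicate 1. T cell, macrophage, neutrophil and fibroblast sums of all CKD libraries lie above all control libraries, the T cell sums of all 4 colchicine libraries lie below those of all CKD libraries, and the neutrophil sum of colchicine replicate 1 is the highest at 70.1 CPM.

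Adenine-fed kidneys without colchicine were first set against controls. Most measured members rose. By edgeR's quasi-likelihood test at a Benjamini-Hochberg adjusted p below 0.05, 25 of the 38 rose and 5 fell, against 34.1% of all tested genes higher and 33.4% lower (67.4% in either direction). In the same 25 and 5 members the groups did not overlap, which held for 33.2% of all genes above and 33% below. By 2-fold or more, 21 rose, against 18.7% of all genes. The median log2 fold change was 1.17 over the 38 members and 0.04 over all genes. The 25 that rose also passed with RLE, upper-quartile and library-total scaling. Of the 5 that fell (Il22ra1, Il15, Il11ra1, Il15ra and Il17ra), only Il22ra1 passed as lower under library totals, a scaling that moved the median of all genes to 1.05.

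**Figure D2:**
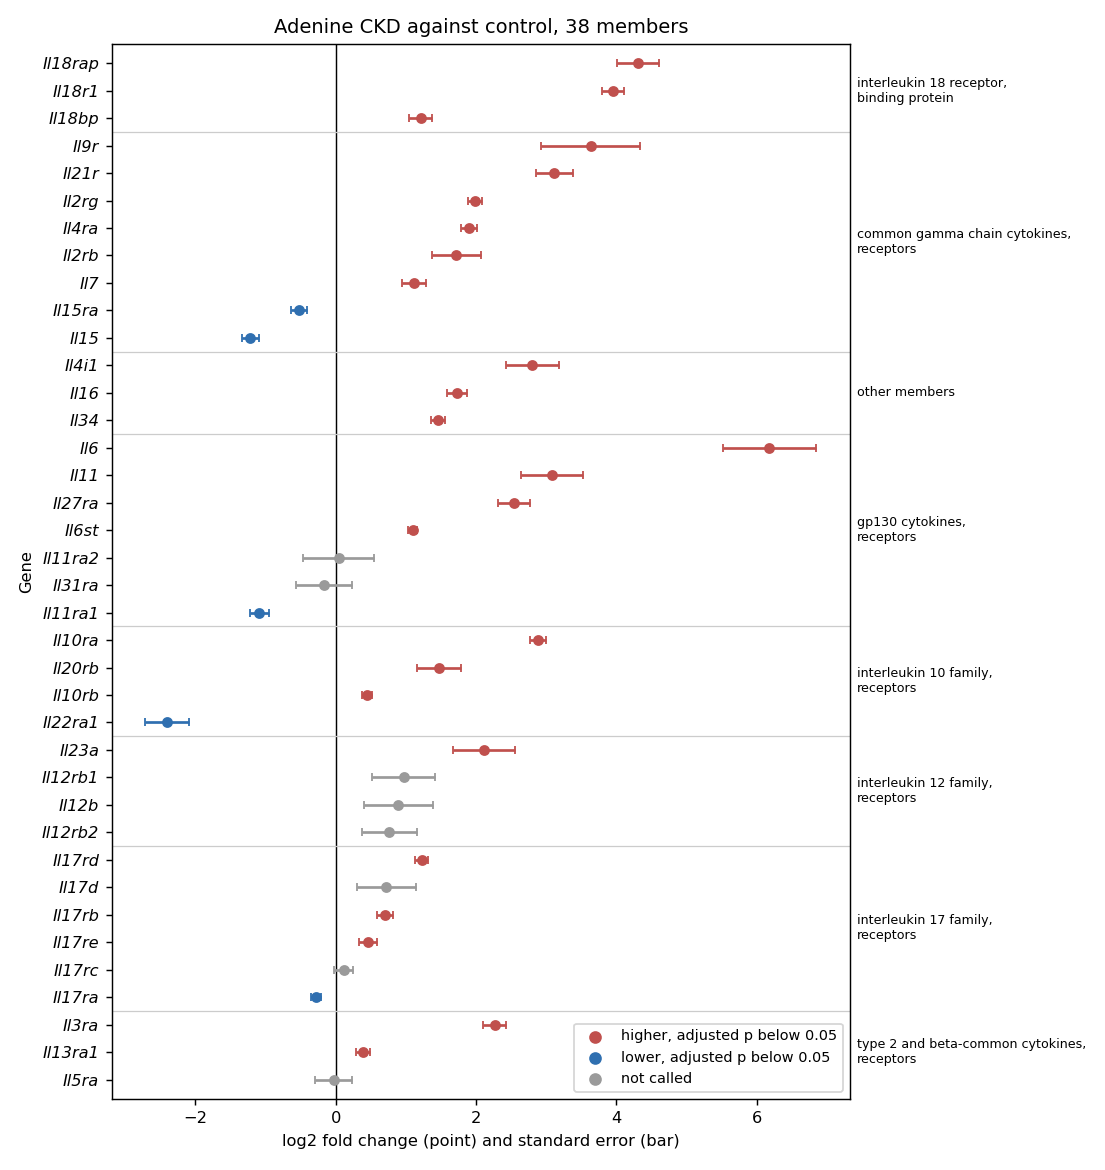
Log2 fold change of CKD against control (horizontal axis) with its standard error for the 38 tested members, grouped by family. The 25 members that rose reach from 0.39 for Il13ra1 to 6.18 for Il6, and the 5 that fell reach from -0.28 for Il17ra to -2.40 for Il22ra1. Under library totals only, Il22ra1 alone stayed lower, Il15 and Il11ra1 were not called, and Il15ra and Il17ra were higher.

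Among the cytokines that signal through gp130, Il6 and Il11 rose from levels near the detection limit. Il6, the inducer of the acute phase response, held 0, 1, 0 and 1 counts in the control libraries and 45, 73, 114 and 71 in CKD. The ratio of the scaled counts was 83.6, with a 95% counting interval of 22.95 to 694, and the groups did not overlap (edgeR adjusted p = 8.22e-07). Il11, a cytokine linked to fibroblast activation, stood at 0.583, 0.356, 0.0684 and 0.174 CPM in control and at 1.93, 2.598, 3.45 and 2.42 CPM in CKD. It rose by 3.08 ± 0.44 on the log2 scale (SE, adjusted p = 1.85e-05), and no CKD library overlapped the controls.

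The upstream sequences of Il6 and Il11, the 2 gp130 ligands that rose, and of Il22ra1, the member with the largest fall, are shown for the motifs they hold. Each is the 250 bases before the RefSeq start site of the GRCm38.p6 build, which differs from the GRCm39 build of the counts. Capitals mark the searched letters: TGANTCA for AP-1, GGGA and TTCC with any 2 bases between them for NF-kappaB, and TTCNNNGAA for STAT factors, each on both strands. Il6 lies at chr5:30012864-30013113 (+), Il11 at chr7:4778142-4778391 (-) for the 1 of its 2 listed starts that holds a match, and Il22ra1 at chr4:135727909-135728158 (+).
Il6: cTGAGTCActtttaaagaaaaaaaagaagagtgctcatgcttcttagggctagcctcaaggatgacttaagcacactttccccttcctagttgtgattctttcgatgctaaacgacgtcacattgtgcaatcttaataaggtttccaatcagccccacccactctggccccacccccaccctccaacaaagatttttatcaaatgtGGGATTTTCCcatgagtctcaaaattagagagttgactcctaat
Il11: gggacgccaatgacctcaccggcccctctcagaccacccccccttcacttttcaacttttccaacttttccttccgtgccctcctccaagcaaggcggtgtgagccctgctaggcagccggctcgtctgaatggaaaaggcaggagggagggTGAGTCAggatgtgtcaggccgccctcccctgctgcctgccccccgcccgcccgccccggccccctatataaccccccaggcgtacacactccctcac
Il22ra1: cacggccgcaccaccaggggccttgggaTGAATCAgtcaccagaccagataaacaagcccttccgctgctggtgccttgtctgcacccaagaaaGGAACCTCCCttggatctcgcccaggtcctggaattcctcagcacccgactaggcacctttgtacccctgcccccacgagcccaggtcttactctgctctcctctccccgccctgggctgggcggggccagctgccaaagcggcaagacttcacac

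In Il6 the AP-1 letters begin 249 bases and the NF-kappaB letters 44 bases before the start, and in Il11 the AP-1 letters begin 98 bases before it. Il22ra1, which fell, matches the AP-1 letters as TGAATCA 222 bases before its start, while Il6 and Il11 match as TGAGTCA. NF-kappaB letters lie 156 bases before the start of Il22ra1. The searched letters of both motifs thus stand before a gene that fell as well as before genes that rose. Of the 65 members, 48 matched a promoter entry by symbol. AP-1 letters were found in 11 of the 48 (22.9%), against 7.82% of all symbols. NF-kappaB letters were found in 3 of the 48 (6.25%, against 1.36%), namely Il6, Il16 and Il22ra1. STAT letters were found in 4 of the 48 (8.33%, against 8.13%). The AP-1 members were Il6, Il11, Il16 and Il17rb, which rose, Il15ra and Il22ra1, which fell, Il5ra, which was not called, and Il9, Il13ra2, Il17a and Il20ra, which were not tested. The AP-1 search allowed any middle base, so the AP-1 shares can include matches other than TGAGTCA. A match is only a description of letters in this window.

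The receptor chains of the gp130 group moved in both directions. Il6st, which encodes gp130 itself, rose from 64.5, 63.0, 63.7 and 66.1 CPM to 137, 142, 142 and 130.5 CPM. The log2 fold change was 1.10 ± 0.06 (adjusted p = 6.03e-10). Il11ra1, the specific receptor chain for interleukin 11, went the other way, from 56.7, 56.5, 51.7 and 47.2 CPM to 25.6, 25.4, 23.1 and 25.5 CPM. It was 2.13 times lower (log2 -1.09 ± 0.13, adjusted p = 3.56e-06), and it was not called under library totals only, at -0.08. So ligand and specific receptor of interleukin 11 were called in opposite directions under TMM. Il11ra1 overlaps Ccl27a in the RefSeq table and has a close copy in Il11ra2, and whether counting used strand is not stated in these sources, so its share of common reads is uncertain. Il11ra2 stood at 0.332 ± 0.194 CPM in control and 0.342 ± 0.0718 in CKD (SD, n = 4) and was not called. Il27ra, a chain of the interleukin 27 receptor found mainly on lymphocytes, rose 5.81-fold, from 0.787 ± 0.306 to 4.65 ± 0.691 CPM, and shares bases with Palm3. Il31ra, a chain of the interleukin 31 receptor, stood at 0.421 ± 0.0975 and 0.371 ± 0.103 CPM and was not called.

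Receptors for interleukin 18, the cytokine that inflammasomes release, rose, and their family had the highest median log2 fold change of the 8 families, 3.95. Il18r1, the ligand-binding chain, went from 1.81, 1.63, 1.44 and 2.14 CPM to 29.9, 25.3, 24.9 and 28.7 CPM. Il18r1 rose 15.4-fold (log2 3.95 ± 0.16, adjusted p = 1.33e-11). Il18rap, the accessory chain needed for signalling, went from 0.117, 0.407, 0.274 and 0.579 CPM to 6.96, 7.94, 7.82 and 5.22 CPM. It rose 19.8-fold (log2 4.31 ± 0.29), so for both chains the lowest CKD library was far above the highest control. Il18bp, a secreted protein that neutralises interleukin 18, rose 2.32-fold, from 4.27 ± 0.517 to 9.93 ± 1.33 CPM. Macrophage and T cell marker sums, given above, rose beside these receptors.

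**Figure D3:**
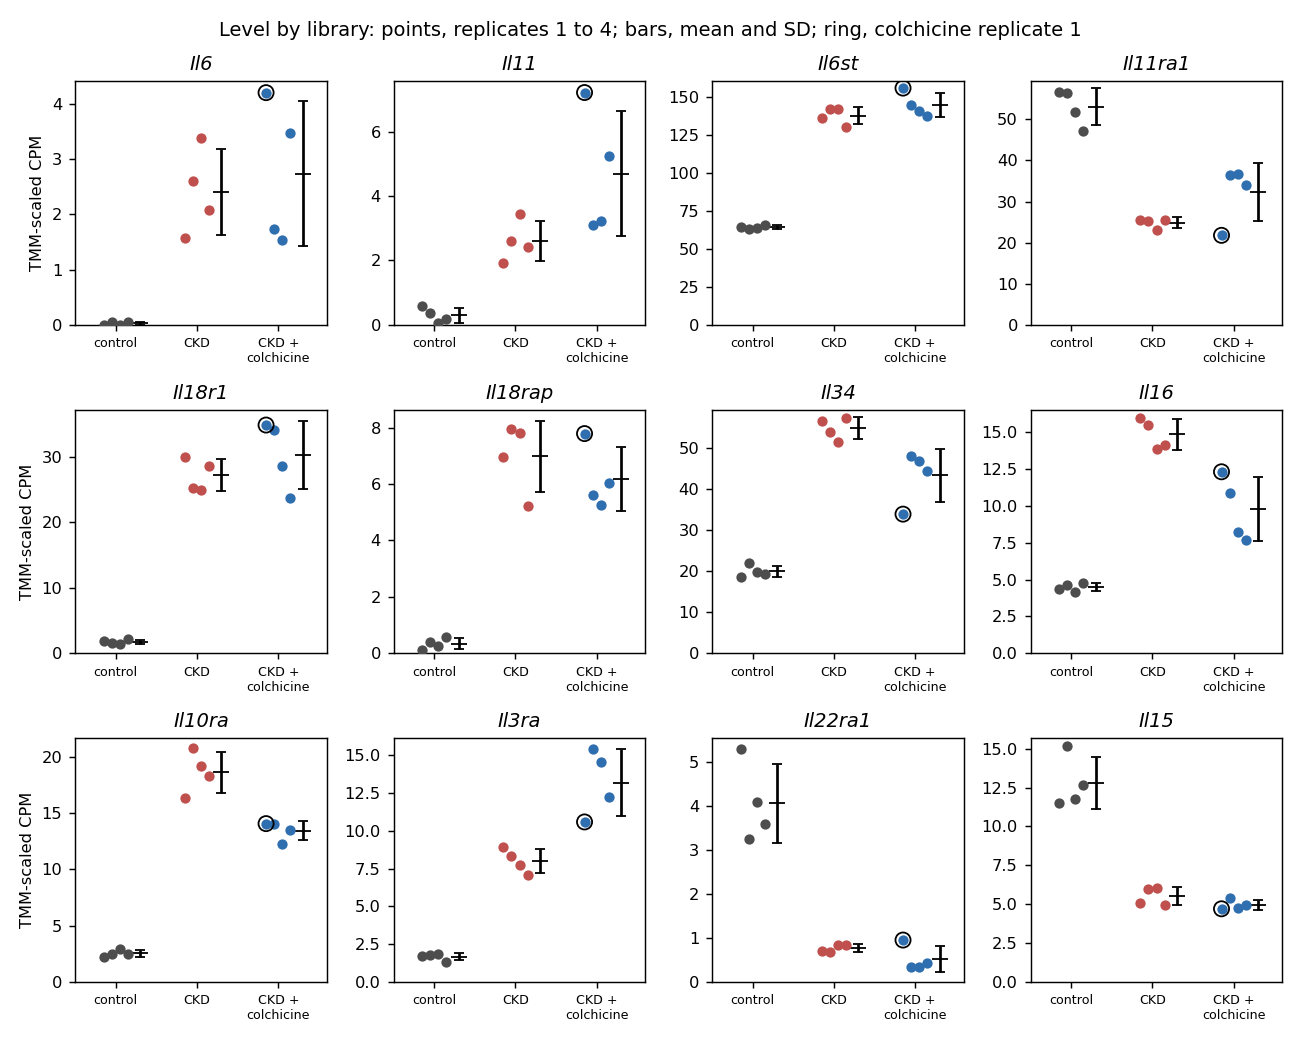
TMM-scaled CPM (vertical axes from 0) of 12 members by group, 1 point per library in order of replicate, with mean and SD beside the points and a ring around colchicine replicate 1. Il6, Il11, Il6st, Il18r1, Il18rap, Il34, Il16, Il10ra and Il3ra of all CKD libraries lie above all controls, and Il11ra1, Il22ra1 and Il15 lie below them, which for Il15 and Il11ra1 was not called under library totals only.

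Receptor chains of the common gamma chain group rose together, while Il15 and its own receptor were lower. Il2rg, the shared gamma chain itself, rose from 7.69, 8.91, 8.28 and 8.35 CPM to 32.3, 35.7, 33.1 and 30.1 CPM (log2 1.98 ± 0.10, adjusted p = 1.46e-10). Il4ra, the chain that receptors for interleukins 4 and 13 share, rose from 11.0, 10.8, 11.2 and 10.3 CPM to 38.9, 41.0, 45.5 and 36.2 CPM (log2 1.90 ± 0.11, adjusted p = 8.76e-10). In both genes the lowest CKD library was well above the highest control. Il21r, the interleukin 21 receptor of lymphocytes, rose 8.68-fold, from 0.793 ± 0.445 to 7.05 ± 0.535 CPM. Il2rb, shared by interleukins 2 and 15, rose 3.29-fold, from 1.52 ± 0.725 to 5.03 ± 0.968 CPM. Il9r, the interleukin 9 receptor, had 0, 0, 1 and 1 counts in control and 14, 12, 12 and 13 in CKD, a ratio of 14.1 with a counting interval of 3.70 to 119. Of the ligands, Il7, which sustains lymphocytes, rose 2.17-fold, from 1.59 ± 0.149 to 3.46 ± 0.573 CPM.

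Il15, a cytokine made by renal epithelium that sustains natural killer and memory T cells, moved against its group. It stood at 11.5, 15.2, 11.8 and 12.7 CPM in control and at 5.10, 5.94, 6.04 and 4.96 CPM in CKD, with no overlap. It was 2.32 times lower (log2 -1.21 ± 0.12, adjusted p = 2.63e-07), but -0.21 and not called under library totals only. Il15ra, which presents interleukin 15 to neighbouring cells, was 1.44 times lower under TMM, at 20.0 ± 2.01 against 13.9 ± 1.72 CPM, and under library totals only it was higher, at 0.48. The directions of Il15 and Il15ra are therefore relative to TMM scaling. The kidney epithelium markers, at 9091 to 9924 against 2376 to 2750 CPM, were also lower in CKD.

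In the interleukin 10 family, the leukocyte receptor rose and the epithelial receptor fell. Il10ra, the specific chain for interleukin 10 on myeloid cells and lymphocytes, went from 2.21, 2.49, 2.94 and 2.49 CPM to 16.4, 20.8, 19.2 and 18.3 CPM. It rose 7.37-fold (log2 2.88 ± 0.12, adjusted p = 1.42e-11). Il22ra1, the epithelial receptor chain for interleukins 20, 22 and 24, went from 5.30, 3.26, 4.11 and 3.59 CPM to 0.703, 0.676, 0.833 and 0.846 CPM. It was 5.27 times lower (log2 -2.40 ± 0.31, adjusted p = 6.33e-06), and it kept this call under library totals only, at -1.38. Il20rb, which pairs with Il22ra1 in a receptor for interleukins 20 and 24, rose 2.79-fold, from 1.05 ± 0.183 to 2.91 ± 0.251 CPM. The widely expressed partner Il10rb rose 1.36-fold, from 65.0 ± 4.33 to 88.7 ± 4.76 CPM. The 2 partner chains of the Il22ra1 receptors thus rose while Il22ra1 fell.

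The interleukin 12 family had 1 call. Il23a, the subunit that is specific to interleukin 23, went from 0.175, 0.204, 0.274 and 0.058 CPM to 0.949, 1.10, 0.595 and 0.467 CPM. It rose by 2.11 ± 0.44 on the log2 scale (adjusted p = 0.000516), without overlap but at a low level. Il12b, the subunit shared by interleukins 12 and 23, stood at 0.272 ± 0.14 and 0.500 ± 0.185 CPM and was not called (adjusted p = 0.124). Its receptor chains Il12rb1, at 0.418 ± 0.199 and 0.835 ± 0.357 CPM, and Il12rb2, at 0.564 ± 0.293 and 0.959 ± 0.198 CPM, were not called either. Under library totals only, Il12b, Il12rb1 and Il12rb2 passed as higher, and Il12rb1 also with upper-quartile scaling (adjusted p = 0.0359), in a fit on the 8 libraries compared (0.0433), and without control replicate 1 (0.0445) or CKD replicate 4 (0.034). Il12rb2 also passed without control replicate 1 (0.0441).

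Of the 6 tested members of the interleukin 17 family, 3 rose and 1 fell. Il17rd, a regulator of interleukin 17 and growth factor signals, rose from 6.29, 5.29, 5.34 and 5.68 CPM to 14.5, 13.6, 12.5 and 12.3 CPM (log2 1.23 ± 0.10, adjusted p = 1.83e-08). Il17rb, a chain for interleukin 25, rose 1.63-fold, from 5.21 ± 0.332 to 8.47 ± 0.547 CPM. Il17re, a chain for interleukin 17C on epithelium, rose 1.37-fold, from 11.5 ± 1.58 to 15.8 ± 1.502 CPM. Il17ra, the chain all these receptors share, stood at 25.8 ± 0.562 and 21.2 ± 1.40 CPM, a log2 change of -0.28 ± 0.07 (adjusted p = 0.00332). It was not called with upper-quartile scaling, at -0.15, and higher under library totals only, at 0.73. Il17rc, its partner for interleukins 17A and 17F, stood at 7.12 ± 0.471 and 7.73 ± 1.27 CPM, and the ligand Il17d at 0.475 ± 0.204 and 0.796 ± 0.388 CPM, and neither was called (adjusted p = 0.465 and 0.143). Under library totals only, Il17rc (1.13) and Il17d (1.72) passed as higher, and Il17d also without CKD replicate 4 (adjusted p = 0.0295).

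The next group holds type 2 receptors and receptors that share the chain Csf2rb. The latter include Il3ra, the interleukin 3 receptor of basophils and other myeloid cells. Il3ra went from 1.69, 1.78, 1.85 and 1.33 CPM to 8.93, 8.33, 7.73 and 7.09 CPM. It rose 4.82-fold (log2 2.27 ± 0.16, adjusted p = 6.30e-09). Il13ra1, which pairs with Il4ra, rose 1.31-fold, from 54.2 ± 5.35 to 71.0 ± 5.10 CPM. Il5ra, the eosinophil receptor for interleukin 5, stood at 3.33 ± 0.675 and 3.26 ± 0.519 CPM and was not called, though it passed as higher under library totals only, at 0.98. Of the remaining members, Il34 is a second ligand of the macrophage growth factor receptor Csf1r and is made by tubular epithelium. It went from 18.7, 21.8, 19.8 and 19.2 CPM to 56.5, 53.7, 51.5 and 57.2 CPM. It rose 2.75-fold (log2 1.46 ± 0.10, adjusted p = 5.60e-09), so it rose while the summed kidney epithelium markers were lower. Il16, a chemoattractant made by lymphocytes, rose from 4.37, 4.63, 4.17 and 4.75 CPM to 16.0, 15.5, 13.9 and 14.1 CPM (log2 1.73 ± 0.15, adjusted p = 4.82e-08). Il4i1, an amino acid oxidase of antigen-presenting cells, rose 6.96-fold, from 0.629 ± 0.213 to 4.39 ± 0.904 CPM. It overlaps other genes, so its share of common reads is uncertain. Of the 64 members matched to 1 gene in the RefSeq table, 20 overlap another gene and carry the same limit. Il6, Il11, Il10ra, Il16, Il34, Il17re and Il9r are among them.

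Most ligands lay under the count filter, while nearly all receptor chains passed it. Of 31 ligands 9 were tested, of 29 receptor chains 27, and of 5 binding proteins, decoys and enzymes 2. Il3, Il9, Il20 and Il22 had no count in any of the 12 libraries, which allows up to 0.00855 CPM by counting error. Il2, Il4, Il13, Il21, Il25, Il31, Il17a, Il4i1b and the decoy receptor Il13ra2 had 10 counts or fewer over the 12 libraries. The T helper ligands Il4, Il13 and Il17a were thus close to undetected at this depth, although the T cell markers rose.

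The other 14 untested members held 11 to 92 counts. Il24, an interleukin 20 family cytokine, had no count in control, 3, 4, 4 and 9 counts in CKD and 36, 9, 8 and 13 with colchicine. It was at least 3.68-fold higher in CKD against a floor of 3 counts over the control group. Il12a, a subunit of interleukin 12, had 0 counts in control and 12 in CKD, at least 2.21-fold higher. Il17f went the other way, with 18 counts in control and 2 in CKD, a ratio of 0.0613 with a counting interval of 0.0069 to 0.256. Without the filter, these 3 of the 23 untested members with any count passed by edgeR, Il24 and Il12a as higher and Il17f as lower (adjusted p = 0.00473, 0.0173 and 0.00453). Il5 had 2 and 16 counts, and Il23r 4 and 22. Il10, the anti-inflammatory cytokine, had 14 counts in control and 23 in CKD, a ratio of 0.907 with an interval of 0.447 to 1.91, while its receptor Il10ra rose. Il17b, Il17c, Il27, Il19, Il1f10, Il20ra, Il22b and Il22ra2 had 0 to 15 counts in control and 0 to 17 in CKD.

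Other genes of the same pathways were read from 4 lists. Of 18 chains and ligands that share receptors with members, 17 rose in CKD and 1 fell, with a median log2 fold change of 2.89. Csf2rb, the chain shared by receptors for interleukins 3 and 5, rose from 1.87 to 31.2 CPM on average (log2 4.06 ± 0.16), Csf1 by 2.89 ± 0.11, and Il7r, the interleukin 7 receptor, by 5.82 ± 0.23. Of 18 JAK-STAT genes, 15 rose and 0 fell, with a median of 0.85. In this list Socs3, the feedback inhibitor of gp130 signals, rose by 5.09 ± 0.21, Bcl3 by 2.35 ± 0.11 and Stat3 by 1.82 ± 0.10. Of 18 genes of interleukin 17 signalling and its targets, 15 rose and 1 fell, with a median of 2.90, which was the same with Csf2 and Csf3 at their bound, since neither had a control count. Lcn2 rose by 7.18 ± 0.22, the chemokine Cxcl5 by 7.31 ± 0.32 and the alarmin S100a8 by 5.09 ± 0.29. S100a8 is a neutrophil gene, and the neutrophil markers rose beside it. Of 13 genes that interleukins 4 and 13 are known to induce, 10 rose and 1 fell, with a median of 2.40. The macrophage receptor Mrc1 rose by 4.19 ± 0.21, the matrix protein gene Postn by 1.86 ± 0.13 and the chemokine Ccl22 by 2.63 ± 0.27. The 1 that fell was Retnla, at -3.85 ± 0.79, with 104 counts in control and 12 in CKD. Macrophage and fibroblast marker sums, given above, rose beside Mrc1 and Postn, and the part of these cells in both rises was not tested. These lists were chosen with results of these data known, and they are given as counts beside the 34.1% of all genes that rose.

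The effect of colchicine during adenine feeding is read from the colchicine and CKD libraries. Few members moved. Of the 38 members, 3 rose (Il3ra, Il17re and Il17rc) and 5 fell (Il10ra, Il15ra, Il16, Il34 and Il9r) by edgeR's quasi-likelihood test. Over all genes, 6.79% rose and 8.24% fell (15% in either direction), so 3 and 5 of 38 are read against that background. Of the called members, 0 rose and 1, Il9r, fell by 2-fold or more, against 0.779% and 0.813% of all genes. The groups did not overlap for 2 members above and 5 below, against 8.9% and 9.29% of all genes. The median log2 fold change was 0.02 over the members and 0.03 over all genes. This comparison and that of CKD with control share the CKD libraries, so values from both are given side by side below.

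**Figure D4:**
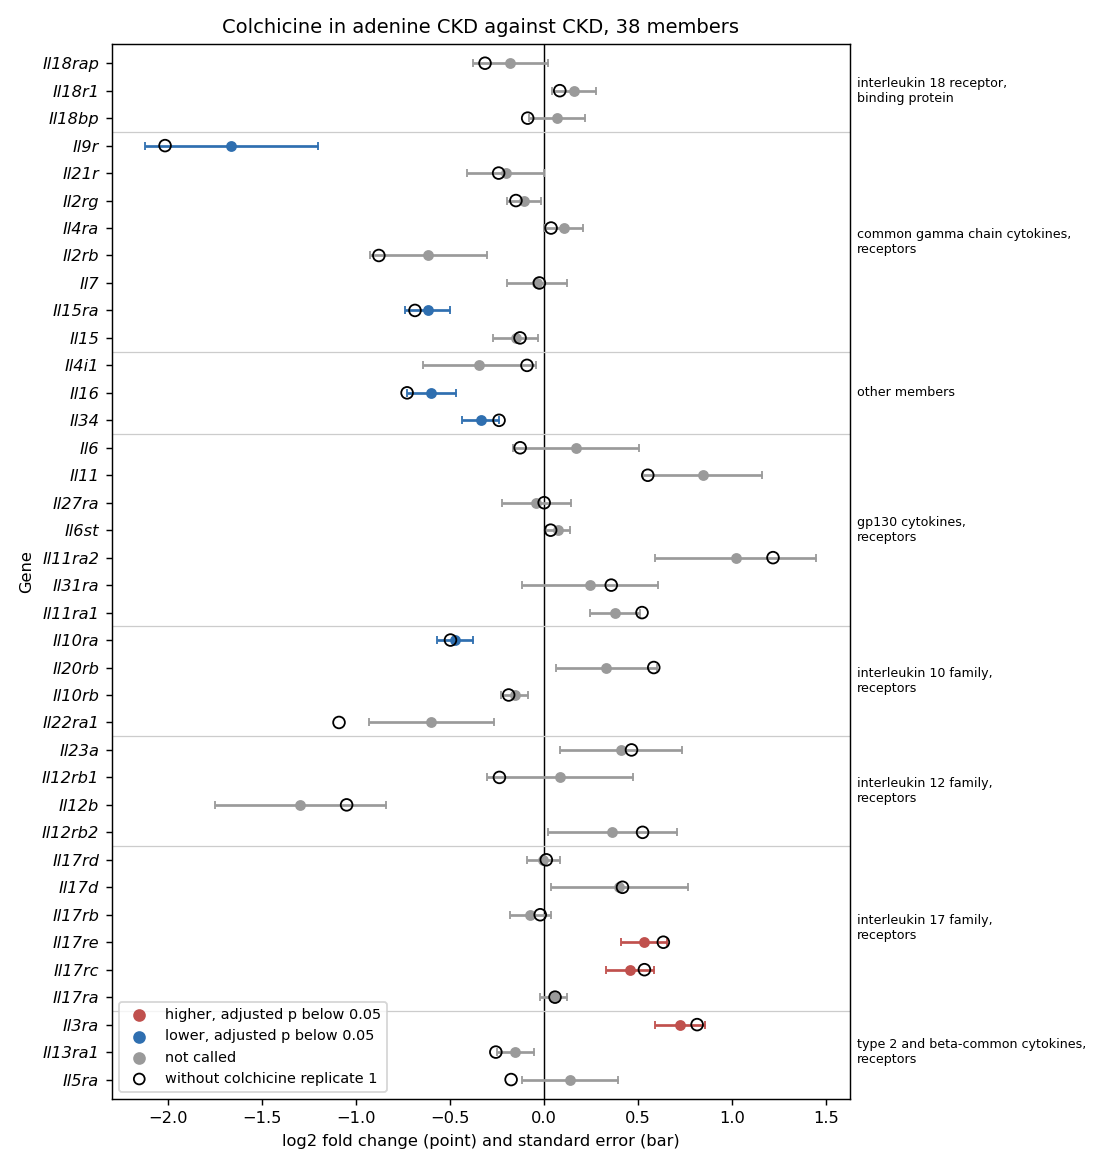
Log2 fold change of colchicine against CKD (horizontal axis) with its standard error for the 38 tested members, in the order of the plot of CKD against control, with open circles for the value without colchicine replicate 1. The 3 members that rose reach from 0.46 for Il17rc to 0.72 for Il3ra, and the 5 that fell reach from -0.34 for Il34 to -1.66 for Il9r. The open circles of Il6, at -0.13, and of Il18bp, Il12rb1 and Il5ra lie on the other side of 0 from their filled points, and these 4 were called with neither set of libraries.

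Of the 5 members that fell, 3 are receptor chains (Il10ra, Il15ra and Il9r) and 2 are ligands (Il16 and Il34). All 38 tested members include 27 receptor chains and 9 ligands. Il10ra stood at 16.4, 20.8, 19.2 and 18.3 CPM in CKD and at 14.1, 14.0, 12.2 and 13.5 CPM with colchicine, with no overlap. The change was -0.47 ± 0.10 (adjusted p = 0.00696), after 2.88 in CKD against control. Il16 stood at 16.0, 15.5, 13.9 and 14.1 CPM in CKD and at 12.3, 10.9, 8.23 and 7.71 CPM with colchicine. On the log2 scale the change was -0.60 ± 0.13 (adjusted p = 0.0105), after 1.73. Il10ra and Il16 kept their call without any 1 library, with highest adjusted p of 0.0315 and 0.0355. A fit that takes the labelled adenine percentage as a true dose, adds it as a slope and is read at 2% called neither. There Il10ra was at -0.42 (adjusted p = 0.0843), close to its value without the slope, and Il16 at -0.26 (adjusted p = 0.269). Beside them, 4 of 10 macrophage and monocyte markers, 2 of 10 T cell markers and 5 of 6 dendritic cell markers fell with colchicine. Over all genes 8.24% fell.

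Il15ra stood at 13.8, 15.7, 14.6 and 11.6 CPM in CKD and at 10.3, 7.43, 9.65 and 8.90 CPM with colchicine. Its log2 fold change was -0.62 ± 0.12 (adjusted p = 0.00605), and it was -0.52 in CKD against control, so under TMM Il15ra was lowest with colchicine. Under library totals only, it was higher in CKD than in control (0.48) and not called between colchicine and control (-0.11). Between colchicine and CKD, Il15ra passed without any 1 library (highest adjusted p = 0.0252), and with the adenine slope it was at an adjusted p of 0.0571. Its ligand Il15, at 5.51 ± 0.56 and 4.96 ± 0.321 CPM, was not called (log2 -0.15 ± 0.12, adjusted p = 0.390).

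Il34 stood at 56.5, 53.7, 51.5 and 57.2 CPM in CKD and at 33.8, 48.0, 46.8 and 44.3 CPM with colchicine, where replicate 1 was the lowest. The change was -0.34 ± 0.10 (adjusted p = 0.0327), after 1.46 in CKD against control. This call rested on few margins: it was lost without any 1 of the 4 CKD libraries (highest adjusted p = 0.0794, without CKD replicate 4), without colchicine replicate 4 (0.05) and with upper-quartile or library-total scaling (0.0992 and 0.0629). Its receptor Csf1r, which is no member, was at 141 CPM on average in CKD and 99.1 with colchicine (log2 -0.51 ± 0.09, adjusted p = 0.00486). The kidney epithelium markers, of the tissue that makes Il34, summed to 2376 to 2750 CPM in CKD and 1662 to 1975 with colchicine.

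Il9r had 14, 12, 12 and 13 counts in CKD and 8, 6, 4 and 2 with colchicine, 3.17 times lower in the fit (log2 -1.66 ± 0.46, adjusted p = 0.0273). At so few counts the call was lost on leaving out any 1 library other than colchicine replicate 1, with adjusted p from 0.0537 to 0.0816, and with the replicate number as a block (0.0540). With mitochondrially encoded transcripts left out, Il9r did not pass the filter.

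The members that rose were receptor chains, as were 27 of all 38 tested members. Il3ra stood at 8.93, 8.33, 7.73 and 7.09 CPM in CKD and at 10.6, 15.5, 14.5 and 12.2 CPM with colchicine, with no overlap. On the log2 scale the change was 0.72 ± 0.13 (adjusted p = 0.00441), after 2.27 in CKD against control. It passed without any 1 library (highest adjusted p = 0.0219) and under each of the 11 other settings (highest 0.0457), the adenine slope included. Il17re stood at 16.9, 16.2, 13.6 and 16.4 CPM in CKD and at 17.7, 24.7, 25.8 and 23.0 CPM with colchicine. Its log2 fold change was 0.53 ± 0.12 (adjusted p = 0.0131), and it was not called without CKD replicate 3 (0.0541) or with the adenine slope (0.246). Il17rc, the next gene to Il17re in the RefSeq table, stood at 7.87, 8.83, 8.30 and 5.92 CPM in CKD and at 8.82, 11.2, 10.9 and 11.5 CPM with colchicine, where the lowest library was just under the highest of CKD. The change was 0.46 ± 0.13 (adjusted p = 0.0292), and it was called in 2 of the 8 fits that left out 1 library, those without CKD replicate 2 or colchicine replicate 1 (highest adjusted p of the 8 fits 0.0838). Of the 7 fibroblast markers, 3 rose and 0 fell with colchicine, and their sum was above that of CKD in each library. Of the 10 kidney epithelium markers, 0 rose and 4 fell. Over all genes, 6.79% rose and 8.24% fell. The part of either cell type in the rise of these receptor chains was not tested.

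Of the 9 tested ligands, 2 fell with colchicine (Il16 and Il34, above) and 7 were not called. Il6 was at 1.58, 2.598, 3.39 and 2.07 CPM in CKD and at 4.21, 1.74, 1.53 and 3.48 CPM with colchicine (log2 0.17 ± 0.34, adjusted p = 0.746), so the colchicine libraries lay on both sides of CKD. Il11 was at 7.22, 3.11, 3.22 and 5.25 CPM with colchicine, against 1.93 to 3.45 CPM in CKD (log2 0.84 ± 0.32, adjusted p = 0.0822), and its highest value was in colchicine replicate 1. Il11ra1 was at 21.8 CPM in colchicine replicate 1 and at 36.5, 36.7 and 34.1 CPM in the others, against 23.1 to 25.6 CPM in CKD (log2 0.38 ± 0.13, adjusted p = 0.0678). Thus the library with the most Il11 had the least Il11ra1 of its group. Il23a was at 0.778 ± 0.297 CPM in CKD and 1.02 ± 0.148 with colchicine, and Il12b at 0.500 ± 0.185 and 0.205 ± 0.109 (log2 -1.30 ± 0.45, adjusted p = 0.0650). The receptors with the largest rises in CKD were not called either: Il18r1 was at 27.2 ± 2.48 and 30.3 ± 5.20 CPM and Il18rap at 6.99 ± 1.25 and 6.17 ± 1.13 CPM. The other 22 members that were not called had log2 fold changes from -0.62 for Il2rb to 1.02 for Il11ra2.

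Without colchicine replicate 1, whose values often lay apart, 6 members rose and 8 fell, and the 3 and 5 called with all libraries stayed called. Calls over all genes rose as well, from 1212 to 2882 higher and from 1470 to 3519 lower of 17841, so the added calls are not particular to the members. The members added as higher were Il11ra1 (0.52, adjusted p = 0.000134), Il20rb (0.58, 0.0111) and Il11ra2 (1.22, 0.0331). Those added as lower were Il22ra1 (-1.09, 0.00666), Il13ra1 (-0.26, 0.0228) and Il2rb (-0.88, 0.0329). Il20rb stood at 1.52 CPM in colchicine replicate 1 and at 4.66, 4.59 and 3.82 CPM in the others, and Il22ra1 at 0.950 CPM in replicate 1 and 0.329, 0.342 and 0.417 in the others. Replicate 1 is also the only colchicine library with the 2% adenine label of the CKD group. With the adenine slope, read at 2%, Il3ra and Il34 remained of the 8 called members, and Il18r1 was also called as higher (0.43, adjusted p = 0.0490).

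Among the members under the filter, Il24 had 66 counts with colchicine and 20 in CKD, a ratio of 2.602 with a counting interval of 1.56 to 4.53. Of the 66, 36 were in colchicine replicate 1, and without that library the ratio was 1.54. Il10 had 55 and 23 counts (1.89, interval 1.14 to 3.21), of which 30 were in colchicine replicate 3, without which the ratio was 1.25. Il20ra had 17 and 1 counts, 11 of them in colchicine replicate 3, and Il17f 13 and 2. Il5 was lower, with 8 counts against 16 in CKD (0.394, interval 0.146 to 0.976) and no overlap in CPM between the groups. The intervals cover counting error only, and without the filter none of the 23 untested members with a count passed by edgeR in this comparison, with 3 at an unadjusted p below 0.05.

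The pathway lists are read against the 6.79% of all genes that rose and the 8.24% that fell between colchicine and CKD. Of the 18 chains and ligands that share receptors with members, 1 rose and 3 fell, with Il7r at -0.89 ± 0.14 and Csf1r as given above. Of the 18 JAK-STAT genes, 3 rose and 3 fell, with the kinase gene Pim1 at 0.62 ± 0.11 and the phosphatase gene Ptpn6 at -0.33 ± 0.07. Of the 18 genes of interleukin 17 signalling, 1 rose and 2 fell, with the inhibitor Tnfaip3 at -0.60 ± 0.15 and the chemokine Cxcl2 at -0.88 ± 0.23. Of the 13 genes listed as targets of interleukins 4 and 13, 1 rose and 2 fell. The transcription factor Gata3 was at 0.44 ± 0.11 and the lectin Clec10a at -0.82 ± 0.24. Gata3 stood at 44.1 CPM in control, where the summed T cell markers reached 9.42, and was not called in CKD (log2 -0.19 ± 0.12). The cells behind its level were not tested. List medians lay between -0.12 and -0.06, against 0.03 for all genes.

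Colchicine-treated kidneys were far from control for these genes. Against control, 29 of the 38 members were higher and 5 lower, where 37.1% of all genes were higher and 33.4% lower (70.5% in either direction). The groups did not overlap for 25 members above and 5 below, against 32.2% and 30.3% of all genes. The 5 lower members were Il22ra1, Il15, Il15ra, Il11ra1 and Il17ra. Under library totals only, Il22ra1 and Il15 passed as lower, and Il15ra, at -0.11, was not called. With the same scaling Il11ra1, at 0.32, and Il17ra, at 0.81, passed as higher. Il10ra, at 13.4 ± 0.849 CPM, was still above the 2.54 ± 0.301 CPM of control (log2 2.41 ± 0.12), Il16 stood at 1.13 ± 0.15 and Il34 at 1.12 ± 0.10. Il3ra was at 2.99 ± 0.16, Il18r1 at 4.10 ± 0.16 and Il11 at 3.93 ± 0.43 (SE; highest adjusted p of these 6 genes 5.19e-06). Il12rb1, Il12rb2, Il17d and Il17rc were called against control here and not in CKD against control, and the difference between those comparisons is that of colchicine against CKD, in which Il17rc was called and the other 3 were not. Against control, Il17rc kept its call in all 8 fits that left out 1 library, Il12rb2 in 7 (lost without colchicine replicate 3, adjusted p = 0.0527), Il17d in 5 (highest adjusted p 0.0762, without control replicate 1) and Il12rb1 in 2 (highest 0.144, without colchicine replicate 1). Il12rb1 was also lost with limma-voom (0.0862), and Il12rb2 and Il17d with the adenine slope (0.248 and 0.0681). Il13ra1 kept its call as higher in 3 of the 8 fits (highest adjusted p 0.159) and Il9r in 4 (highest 0.12). Neither was called with DESeq2, limma-voom or the replicate block. Il17ra kept its call as lower in all 8 fits. It was not called with upper-quartile scaling, at -0.03, without the filter (adjusted p = 0.117) or with the adenine slope (0.0906).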

How the data were processed

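Kidney RNA was read in 12 libraries. The deposited values, which the authors made from the reads, were taken as estimated counts (expected counts) per gene symbol. This unit was inferred from the values and from the tools named. The submitters' processing notes name fastp, STAR, Salmon and the GRCm39 build, without versions or roles. Whether counting used strand is not stated. All values used in the fit were whole numbers.

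Groups came from the sample titles. Genes were kept by edgeR's filterByExpr (minimum count 10), scaled by TMM and tested with edgeR's quasi-likelihood test (edgeR 4.0.16, limma 3.58.1, R 4.3.3) in 1 fit of 3 groups, with Benjamini-Hochberg adjustment over 17841 genes and a threshold of 0.05. CPM values are counts per 1000000 of the scaled library. Standard errors are the log2 fold change divided by the root of its F statistic. The model step was tested on simulated data. Members under the filter are given as ratios of summed scaled counts with 95% exact binomial intervals, and a group without counts was set to 3 counts. Intervals and limits cover counting error only.

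The members and gene lists were chosen with earlier results of these data known. The text names each member called between colchicine and CKD, or changed by 2-fold or more between CKD and control, and 17 listed members. From each pathway list it names the 3 genes with the smallest p between CKD and control and 2 between colchicine and CKD. Retnla was named besides. Alternatives were RLE, upper-quartile and library-total scaling, 2 other count filters, DESeq2 1.42.0, limma-voom, fits on 8 libraries, a replicate block, a slope on labelled adenine, mitochondrial transcripts left out, and each library left out in turn.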

Additional observations from a re-analysis of the deposited data

Results flagged for a closer look

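In 4 of 114 sets of 4 libraries (38 members in 3 groups), 1 library lay apart by Dixon's test at a critical value of 0.829, where chance alone gives about 5% of such sets. Il11ra1 in CKD replicate 3 was the lowest of its group, at 23.05 CPM against 25.38 to 25.59 CPM in the other 3. Il18bp was highest in control replicate 2, at 5.04 CPM against 3.962 to 4.114 CPM, and lowest in CKD replicate 1, at 7.943 CPM against 10.38 to 10.75 CPM. Il22ra1 was highest in colchicine replicate 1, at 0.9501 CPM against 0.3293 to 0.417 CPM in the other 3.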

How the results depend on the processing

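Of 2103 values of single members under the alternatives, 2003 stayed on their side of the threshold without a reversed call, 70 lost a call, 25 gained one and 5 reversed. Of the 2003, 38 changed sign with no call under either setting. The 5 reversals came under library totals only: Il5ra (0.98), Il15ra (0.48) and Il17ra (0.73) in CKD against control, and Il11ra1 (0.32) and Il17ra (0.81) in colchicine against control. With that scaling, lower members went from 5 to 1 in CKD against control and from 5 to 2 in colchicine against control. Between colchicine and CKD, leaving out 1 library gave 1 (without CKD replicate 3) to 6 (without colchicine replicate 1) higher members and 3 (without each CKD replicate) to 8 (without colchicine replicate 1) lower ones, and the adenine slope left 1 lower. Counts over all genes moved likewise, with 419 higher and 573 lower without CKD replicate 3, 2882 and 3519 without colchicine replicate 1, and 392 and 616 with the slope, against 1212 and 1470. The cause of these shifts was not tested. With the replicate number as a block, 25 and 5, 3 and 4, and 27 and 5 members were higher and lower in the 3 comparisons, and over all genes 694 and 1062 between colchicine and CKD. Same-numbered libraries correlated between -0.279 and 0.189 in their deviations, so the numbers were not taken as pairs. Depth limits the ligands: 22 of 31 were not tested.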

Other observations

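Some members are neighbours on their chromosome in the RefSeq table. Il6st and Il31ra lie next to each other, and in CKD against control Il6st rose by 1.10 ± 0.06 on the log2 scale while Il31ra was at -0.17 ± 0.40 and not called. Il17re rose by 0.46 ± 0.13 while its neighbour Il17rc, at 0.12 ± 0.13, was not called. The neighbours Il18r1 and Il18rap rose by 3.95 ± 0.16 and 4.31 ± 0.29, and the neighbours Il4ra and Il21r by 1.90 ± 0.11 and 3.12 ± 0.27. The differences within these pairs were not tested.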
